A study of Mus musculus with 28 samples.

Results

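The 9 cyclin genes Ccna1, Ccna2, Ccnb1, Ccnb2, Ccnd1, Ccnd2, Ccnd3, Ccne1 and Ccne2 were followed through spermatogenesis by H3K27ac, the histone acetylation found at active promoters and enhancers. Their peaks were all those listed under one of these symbols alone, and a promoter peak was one within 1 kb of a start listed under that symbol. Of 471458 H3K27ac peaks in the series, 387 belonged to these genes, 139 of them at promoters and 248 elsewhere. Of the 9 genes, 8 had such a peak among 17923 genes listed alone. Ccna1 had none, because its peaks stood on lines that also named the long non-coding RNA gene 4931419H13Rik. A further 50 peaks lay on such shared lines for Ccna1, Ccnb1, Ccnd1, Ccnd2, Ccnd3 and Ccne2. Of these, the ones at Ccna1, Ccnd1 and Ccnd2 are described apart.

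H3K27ac was profiled by ChIPmentation, in which a transposase adds the sequencing adapters to immunoprecipitated chromatin. The germ cells were isolated from C57BL/6 testes with an intact Scml2 gene (wild type, WT) or with Scml2 knocked out (KO). Scml2 encodes a Polycomb-related protein of germ cells, and cells were separated by sedimentation or magnetic sorting. The 12 H3K27ac libraries formed 6 groups of 2: Thy1+ spermatogonia WT, c-Kit+ spermatogonia WT, Thy1+ spermatogonia KO and c-Kit+ spermatogonia KO, all from postnatal day 7, and pachytene spermatocytes (PS) KO and round spermatids (RS) KO, both from adults. A further 16 libraries were inputs, chromatin sequenced without immunoprecipitation. H3K27ac of WT PS and WT RS was not analysed here, so every test with adult cells was made within KO, and stage and age cannot be told apart. Where KO is not named, levels, shares and ratios set adult KO libraries against spermatogonial libraries of both genotypes. Genotype is thus mixed into those contrasts. Acetylation peaks do not check the deletion of Scml2 itself. The labels do not say whether replicates came from separate animals, so p-values measure only the spread between these samples.

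Cyclins are the regulatory partners of cyclin-dependent kinases. D-type cyclins carry growth signals to the retinoblastoma protein in early G1, E-type cyclins drive entry into S phase, and A-type and B-type cyclins act in S phase, G2 and M phase. Spermatogonia divide by mitosis, pachytene spermatocytes are in the long prophase of the first meiotic division, and round spermatids have left the cell cycle.

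The libraries held between 17877 and 73316 H3K27ac peaks, with 63322 to 73316 in the 4 adult and 17877 to 36362 in the 8 spermatogonial libraries. A level below is the deposited fold enrichment of the strongest promoter peak, the ratio of the signal height at its summit plus 1 to the background height of the library plus 1. That background ranged from 0.564 to 1.62, and it is the only indicator of depth, because read numbers are unknown. At the 6624 promoters of single genes with a peak in all 12 libraries, the median fold enrichment was 20.2 and 21.3 in PS KO, 17.2 and 14.6 in RS KO, 17.7 in Thy1+ KO replicate 1 and 8.16 to 11.3 in the other 7 libraries. Levels were thus higher at most promoters in adult cells and in Thy1+ KO replicate 1, and the tests below used log2 fold enrichment centred on the median region of each library. Of 10 pachytene marker genes, all 10 had a promoter peak in each adult library, against 2 to 5 in spermatogonia. Of 10 markers of undifferentiated spermatogonia, 1 to 8 had one in Thy1+ libraries and 5 to 7 in adult libraries, so this list did not set the Thy1+ label apart. Of 8 markers of differentiating spermatogonia, 2 to 5 had one in c-Kit+, 1 to 4 in Thy1+ and 5 to 8 in adult libraries, so neither did that list set the c-Kit+ label apart. Round spermatid markers had a peak at 5 of 10 promoters in both RS libraries and at 5 and 6 in PS, so they did not separate RS from PS. Of 8 Sertoli cell markers, 6 (Sox9, Amh, Gata4, Cldn11, Inha and Dhh) had a promoter peak in both PS libraries, against 2 in both RS libraries and 1 to 3 in spermatogonia. Leydig cell markers had one at 4 of 6 promoters in PS, 1 in RS, 2 to 4 in c-Kit+ and 0 to 2 in Thy1+ libraries. Peritubular myoid cell markers had one at 2 to 3 of 4 promoters in Thy1+, 0 to 2 in c-Kit+, 1 in PS and 1 to 2 in RS libraries. Of 4 macrophage markers, 3 had one in both RS libraries, against 1 and 2 in PS and 0 to 1 in spermatogonia. The part of those other cell types in the values below, spermatogonial or adult, was not tested.

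The 8 genes had 9 promoters, since Ccnd3 has an upstream and a downstream start. A promoter peak was called in 98 of the 108 pairs of promoter and library, and in 0 of the 16 inputs. Ccna2, Ccne1, Ccne2 and the downstream start of Ccnd3 had one in all 12 libraries, as did 48.7% of the 13603 genes with a promoter peak in any library. The median level, over libraries with a peak, was higher in adult than in spermatogonial libraries at 8 of the 9 promoters. It was lower at Ccnd2, from 3 adult and 6 spermatogonial libraries. The share of all promoters with a higher adult median was not counted. The median promoter called in all 12 libraries was itself 1.62 times as high in adult cells. Ccna2 was the 1 promoter of those 4 whose adult libraries all lay above all spermatogonial libraries, a pattern found at 20.3% of promoters with a peak in all 12.

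**Figure D1:**
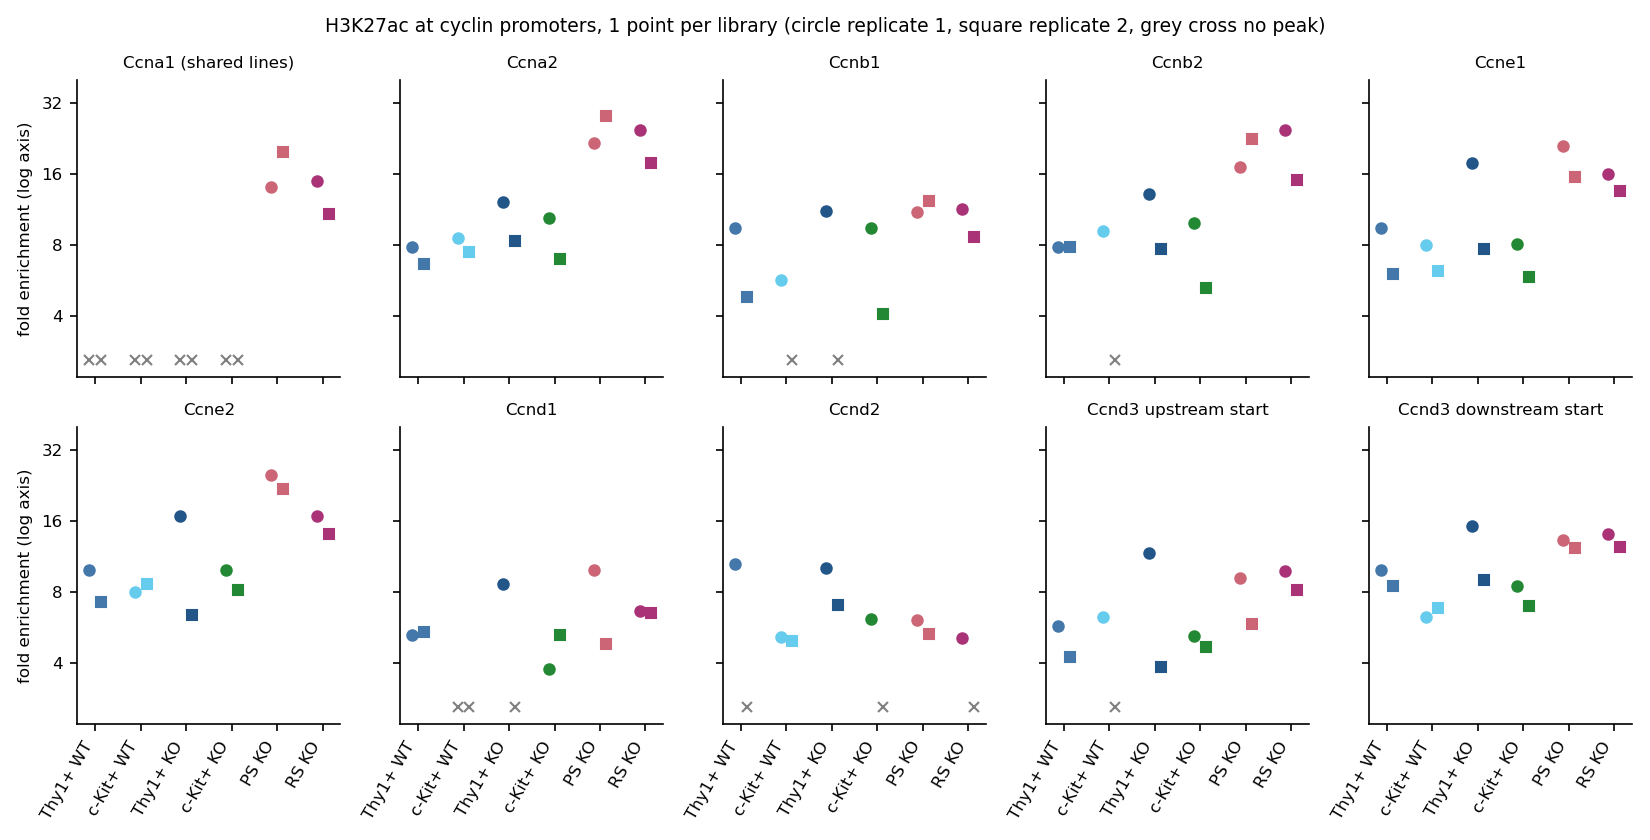
Fold enrichment (log axis) of the strongest promoter peak in each of the 12 H3K27ac libraries, by group; circles are replicate 1, squares replicate 2, and grey crosses mark libraries with no promoter peak under the symbol. Ccna1 peaks, all on shared lines, were called in the 4 adult libraries only, and the adult values of Ccna2 (17.9 to 28.3) lie above all its spermatogonial values (6.64 to 12.2).

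Ccna1 is the A-type cyclin of male meiosis, and in the mouse its loss arrests spermatocytes before the first division. Its start lies on the minus strand of chromosome 3, and the 4931419H13Rik start lies 187 bp away on the plus strand, so that the peaks cannot be given to one of them. The fold enrichment was 14.1 and 19.7 in the PS KO libraries and 14.9 and 10.8 in the RS KO libraries. No peak of any kind was called within 5 kb of the Ccna1 start in any of the 8 spermatogonial libraries. Treating Ccna1 through its shared lines was decided after its values were seen. A promoter peak in every adult and no spermatogonial library was found for 7.09% of the 13603 genes. The levels in PS and RS overlapped, and the log2 change from PS to RS was -0.20 (SE 0.21, limma adjusted p = 0.554). No fold or test against spermatogonia is given, since they hold no value there.

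The strongest Ccna1 summit lay between -566 and -377 bp from the Ccna1 start (negative values are upstream) in the 4 adult libraries, which is 190 to 379 bp into 4931419H13Rik. The start itself lay inside that peak in both PS libraries and in RS KO replicate 1, and outside it in RS KO replicate 2. The sequence around the start is shown because the acetylation next to it separates the adult libraries from the others. It runs from 250 bases before the RefSeq start to 30 bases into the transcript, and it was matched by symbol in RefSeq's table for GRCm38.p6, as were promoters of 5 of the 9 genes in all. Capitals mark CCAAT, or ATTGG where it lies on the other strand, the box bound by NF-Y, and TTTGAA or TTCAAA, the core of the cell cycle homology region (CHR).
Ccna1 (chr3:55055026-55055305, minus strand): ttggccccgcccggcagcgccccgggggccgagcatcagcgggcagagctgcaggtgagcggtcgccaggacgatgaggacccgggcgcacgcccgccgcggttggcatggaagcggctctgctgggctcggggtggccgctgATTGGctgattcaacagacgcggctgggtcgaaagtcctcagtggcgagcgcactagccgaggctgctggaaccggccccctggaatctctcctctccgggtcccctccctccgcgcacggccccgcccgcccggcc
This window held 1 CCAAT box, with its first base at -107 from the start, and no TTTGAA. It held 32 CpG, against a median of 6 in the 32851 windows of the table.

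The 5 genes whose promoter levels were most like those of Ccna1 over the 12 libraries were 4933416C03Rik, 1700080O16Rik, Mospd4, Mcmdc2 and Morn4, with Pearson correlations of 0.9997 to 0.9999 of log2 fold enrichment among 10887 genes, and uncalled libraries at their lowest value. Each had a promoter peak in the 4 adult and 0 spermatogonial libraries, so 8 of the 12 values behind each correlation were such lowest values.

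Ccna2 is the A-type cyclin of dividing somatic and germ cells, with roles in S phase and in entry into mitosis. It lies on chromosome 3 from 36564865 to 36571996, on the minus strand. The fold enrichment was 7.86 and 6.64 in Thy1+ WT, 8.55 and 7.44 in c-Kit+ WT, 12.2 and 8.31 in Thy1+ KO and 10.4 and 7.00 in c-Kit+ KO. It was 21.7 and 28.3 in PS KO and 24.6 and 17.9 in RS KO. All 4 adult libraries were above all 8 spermatogonial ones, and PS and RS overlapped. Among the promoters called in all 12 libraries, 20.3% showed this order and 0.181% the reverse. Before centring, the geometric mean level was 2.72 times as high in adult cells as in spermatogonia, against 1.62 times for the median promoter called in all 12 libraries. After centring, the KO spermatogonial and adult values of Ccna2 did not overlap, and its log2 change was 0.62 (limma adjusted p = 0.00544, SE 0.14). The share of all regions whose centred KO values did not overlap was not counted. Between c-Kit+ KO and PS KO the log2 change of Ccna2 was 0.46 (SE 0.20, limma adjusted p = 0.0999), and from PS to RS it was -0.05 (SE 0.21, limma adjusted p = 0.898). The peaks were also wider, covering 1848 to 2283 bp in adult libraries and 419 to 1400 bp in spermatogonia, a ratio of geometric means of 2.11 against 1.75 for the median promoter called in all 12 libraries. In 3 libraries, all spermatogonial, the start lay in a gap of 79 to 486 bp between 2 peaks, and in the other 9 it was inside a peak.

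B-type cyclins bind CDK1 and bring cells into M phase, and both were examined beside Ccna2. Ccnb2 lies on chromosome 9 from 70407689 to 70421554 and Ccnb1 on chromosome 13 from 100778739 to 100786486, both on the minus strand. At Ccnb2 the fold enrichment was 7.86 and 7.84 in Thy1+ WT, 9.12 in the 1 c-Kit+ WT library with a peak, 13.2 and 7.67 in Thy1+ KO and 9.93 and 5.25 in c-Kit+ KO. It was 17.2 and 22.4 in PS KO and 24.6 and 15.1 in RS KO. All 4 adult levels were above the 7 spermatogonial ones, with no value for c-Kit+ WT replicate 2, but the centred KO values overlapped. The share of promoters in this order was counted only for those called in all 12 libraries (20.3%), which leaves out Ccnb2. The centred level was higher in adult KO cells than in KO spermatogonia by a log2 change of 0.52 (limma adjusted p = 0.0307, SE 0.17). Without Thy1+ KO replicate 2, c-Kit+ KO replicate 2 or RS KO replicate 1 the adjusted p of Ccnb2 was 0.0728, 0.0778 or 0.103. With libraries without a peak at their lowest value, its adjusted p was 0.0652. From c-Kit+ cells to PS the log2 change of Ccnb2 was 0.36 (SE 0.23, limma adjusted p = 0.244).

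At Ccnb1, which is essential for mitosis, the adult levels were 11.1 and 12.3 in PS KO and 11.3 and 8.66 in RS KO. The spermatogonial levels were 9.43 and 4.83 in Thy1+ WT, 5.70 in 1 c-Kit+ WT library, 11.1 in Thy1+ KO replicate 1 and 9.46 and 4.08 in c-Kit+ KO, with no peak in c-Kit+ WT replicate 2 and Thy1+ KO replicate 2. Adult and spermatogonial values overlapped. From c-Kit+ cells to PS the log2 change was -0.17 (SE 0.25, limma adjusted p = 0.645), and without centring it was 0.91, about the shift of the median region. Without PS KO replicate 1 the log2 change was -1.22, and without c-Kit+ KO replicate 1 it was 0.30. Peaks were merged anew for these fits, so the tested region can differ from that with all libraries. PS KO replicate 2 had 2 peaks at this promoter, so -1.22 need not describe its level of 12.3.

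Both B-type promoters carried repeated CCAAT boxes, a known feature of genes switched on in G2 and M phase. The windows are printed to show how the boxes are spaced, with the same capitals as for Ccna1.
Ccnb2 (chr9:70421525-70421804, minus strand): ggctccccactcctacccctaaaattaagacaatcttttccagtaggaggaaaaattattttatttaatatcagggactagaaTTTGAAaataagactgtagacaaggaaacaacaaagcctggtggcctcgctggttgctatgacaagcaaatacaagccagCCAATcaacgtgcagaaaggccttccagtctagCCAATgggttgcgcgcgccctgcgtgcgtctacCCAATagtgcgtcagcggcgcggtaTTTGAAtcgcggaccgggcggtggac
Ccnb1 (chr13:100786457-100786736, minus strand): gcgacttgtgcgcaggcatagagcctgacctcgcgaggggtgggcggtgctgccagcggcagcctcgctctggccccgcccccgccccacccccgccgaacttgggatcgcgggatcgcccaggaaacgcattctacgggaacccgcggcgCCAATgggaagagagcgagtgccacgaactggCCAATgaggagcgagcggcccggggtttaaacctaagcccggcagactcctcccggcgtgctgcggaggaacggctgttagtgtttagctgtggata
Ccnb2 held 3 CCAAT boxes whose first bases were 33 and 33 bases apart, at -87, -54 and -21 from the start, and 2 copies of TTTGAA, of which the downstream copy began at base 5 of the transcript. Ccnb1 held 2 CCAAT boxes 32 bases apart, at -99 and -67, and no TTTGAA or TTCAAA. Of the 32851 windows of 280 bases, 36.1% held at least 1 CCAAT on either strand, 11.1% at least 2 and 3.19% at least 3, while 17.2% held TTTGAA on either strand and 2.11% held it at least 2 times. These are matches of letters, and no binding was measured. The strongest H3K27ac summit lay 75 to 264 bp downstream of the Ccnb2 start in all 11 libraries with a peak, and downstream of the Ccnb1 start in 9 of 10.

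**Figure D2:**
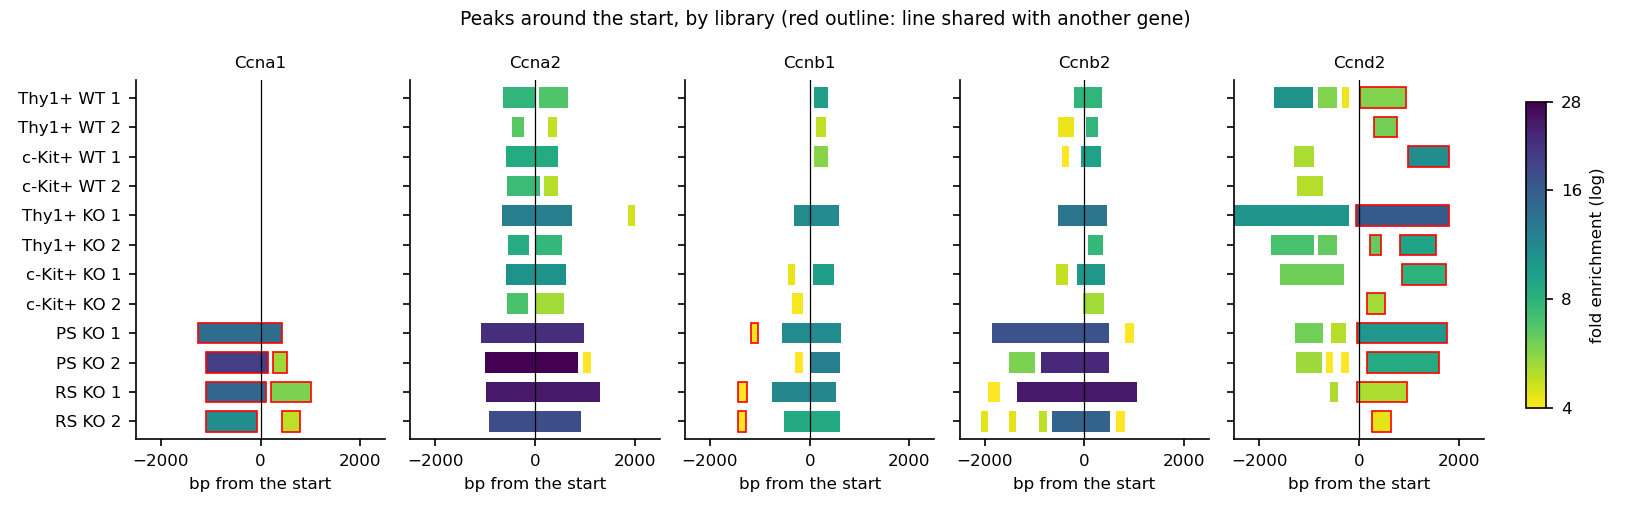
Peaks around the start, 1 row per library, by distance from the start in the direction of transcription; colour gives fold enrichment on a log scale and a red outline marks a line shared with another gene. Peaks at Ccna1 appear in the 4 adult rows only, those at Ccna2 and Ccnb2 are wider in adult rows, and those listed under Ccnd2 alone lie upstream of its start.

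E-type cyclins activate CDK2 at the entry into S phase, and both genes had a promoter peak in every library. Ccne1 lies on chromosome 7 from 38097984 to 38107490 on the minus strand, and Ccne2 on chromosome 4 from 11191354 to 11204779 on the plus strand. At Ccne1 the fold enrichment was 21.0 and 15.5 in PS KO and 16.04 and 13.5 in RS KO, and it was 17.7 in Thy1+ KO replicate 1 and 5.83 to 9.43 in the other 7 spermatogonial libraries. At Ccne2 it was 25.2 and 21.9 in PS KO and 16.8 and 14.1 in RS KO, against 16.7 in Thy1+ KO replicate 1 and 6.40 to 9.96 in the other 7. At both genes that 1 Thy1+ library was the only one of the spermatogonial libraries to overlap the adult range. The uncentred adult to spermatogonial ratio was 2.02 for Ccne1 and 2.11 for Ccne2. After centring, the log2 change from KO spermatogonia to adult KO cells was 0.19 (SE 0.16, limma adjusted p = 0.383) at Ccne1 and 0.30 (SE 0.17, limma adjusted p = 0.182) at Ccne2. Ccne2 was lower in both RS libraries than in both PS libraries. So was the median promoter called in all 12 libraries (17.2 and 14.6 in RS KO, 20.2 and 21.3 in PS KO). The share of promoters in this order was not counted. After centring, the log2 change of Ccne2 from PS to RS was -0.42, which did not pass the threshold (SE 0.20, limma adjusted p = 0.175).

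The strongest summit of Ccne1 lay on different sides of the start in adult and spermatogonial libraries. In the 4 adult libraries the strongest summit lay at 252 to 290 bp from the start, within the transcribed part, and in the 8 spermatogonial libraries it lay upstream at -622 to -261 bp. No test was made of this shift, and the share of all promoters with such a shift was not counted. The window at the Ccne1 start is printed for contrast with the CCAAT boxes of the B-type promoters.
Ccne1 (chr7:38107461-38107740, minus strand): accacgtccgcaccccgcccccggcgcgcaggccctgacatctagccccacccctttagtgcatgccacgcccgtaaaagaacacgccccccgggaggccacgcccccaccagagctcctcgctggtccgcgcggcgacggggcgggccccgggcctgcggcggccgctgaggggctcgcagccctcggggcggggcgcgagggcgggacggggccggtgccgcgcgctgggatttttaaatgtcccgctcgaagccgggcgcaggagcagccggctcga
It held no CCAAT, no TTTGAA, 4 copies of the GC box GGGCGG on either strand and 39 CpG. At least 3 copies of GGGCGG were found in 10.0% of all windows. The Ccnb1 window also held 3 copies, with 29 CpG, and the Ccna1 window 3 copies, while that of Ccnb2 held 1 copy and 15 CpG.

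D-type cyclins bind CDK4 and CDK6 and act on the retinoblastoma protein. Ccnd2, which is known in spermatogonia that begin to differentiate, lies on chromosome 6 from 127125709 to 127151048 on the minus strand. Its promoter peaks under the symbol alone were 10.5 in Thy1+ WT replicate 1, 5.13 and 4.96 in c-Kit+ WT, 10.1 and 7.03 in Thy1+ KO, 6.15 in c-Kit+ KO replicate 1, 6.10 and 5.33 in PS KO and 5.08 in RS KO replicate 1. The 3 highest of these levels were in Thy1+ libraries, adult and c-Kit+ levels overlapped, and replicate 2 of Thy1+ WT, c-Kit+ KO and RS KO had no such peak. Those 3 libraries had a peak within 1 kb of the start on a shared line. The genotype tests of Ccnd2 took values for Thy1+ WT replicate 2 and c-Kit+ KO replicate 2 from peaks not listed under Ccnd2 alone. In the Thy1+ test the centred log2 values were 0.15 and -0.70 in WT and -0.68 and -0.45 in KO. The Thy1+ libraries were thus not all high at Ccnd2. The summits of the 9 libraries with a peak lay upstream, at -1178 to -492 bp. The start was inside a peak listed under Ccnd2 alone in 0 of 9.

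Ccnd2 was the 1 of 9 tested promoters that passed in the comparison of PS with c-Kit+ cells in KO, where 31.9% of 12501 regions passed (25.1% lower and 6.83% higher in PS). The tested region, on chromosome 6 from 127151254 to 127152635, had fold enrichments of 6.15 and 4.66 in c-Kit+ KO and 6.10 and 5.33 in PS KO. The value of 4.66 came from a peak of 155 bp that was listed as an intron of 9330179D12Rik, a neighbouring non-coding gene. The levels of both groups overlapped, while the centred log2 values were -0.55 and -0.58 in c-Kit+ KO and -1.43 and -1.68 in PS KO. The centred log2 change was -0.99 (SE 0.19, limma adjusted p = 0.00223). Without centring it was 0.09, against 0.91 for the median of all regions. The call was lost under quantile normalization (log2 change -0.33, limma adjusted p = 0.264), without c-Kit+ KO replicate 2 (-0.95, limma adjusted p = 0.0754) and with libraries without a peak at their lowest value (-0.68, limma adjusted p = 0.117).

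The lines that name both 9330179D12Rik and Ccnd2 cover the first 2 kb of the gene body, and they had a peak in 11 of 12 libraries. The strongest of these peaks, in Thy1+ KO replicate 1, covered the Ccnd2 start at 127151048. By position these are promoter peaks, and they stand apart only because their lines name another gene. The highest fold enrichments there were 16.2 in Thy1+ KO replicate 1 and 10.8 in c-Kit+ WT replicate 1, and the lowest were 5.08 and 4.33 in RS KO. In PS KO they were 9.91 and 8.53. For this region, on chromosome 6 from 127149237 to 127151113, the log2 change from KO spermatogonia to adult KO cells was -0.99 (limma adjusted p = 0.00124, SE 0.17) and without centring -0.31 (limma adjusted p = 0.386). With uncalled libraries at their lowest value it was -0.65 (limma adjusted p = 0.206). The 5 genes most like Ccnd2 in promoter level over the 12 libraries were Xylt2, Kirrel, Fndc4, Rhobtb3 and Epb4.1l1, with Pearson correlations of 0.896 to 0.915, where the 3 libraries without a Ccnd2 peak entered at their lowest value.

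Ccnd1, the D-type cyclin of many somatic tissues, lies on chromosome 7 from 144929931 to 144939925 on the minus strand. The fold enrichment was 9.91 and 4.80 in PS KO, 6.65 and 6.49 in RS KO, 5.24 and 5.43 in Thy1+ WT, 8.61 in Thy1+ KO replicate 1 and 3.78 and 5.25 in c-Kit+ KO, with no peak in either c-Kit+ WT library or in Thy1+ KO replicate 2. All groups with values overlapped the range of PS. From c-Kit+ cells to PS the log2 change was -0.45 (SE 0.33, limma adjusted p = 0.330). It passed without c-Kit+ KO replicate 1 (-0.82, limma adjusted p = 0.00456) and without PS KO replicate 1 (-0.95, limma adjusted p = 0.0125), and it was positive without either of the other 2 libraries. Upstream of Ccnd1 by 15578 bp, on chromosome 7 from 144955424 to 144956341, a peak was called in both PS libraries (8.01 and 8.00) and in RS KO replicate 1 (4.69), and in no spermatogonial library. Of 4687 upstream regions with a peak in at least 3 libraries, 45.1% had none in spermatogonia. A nearer upstream region, from 144941020 to 144944048 on lines shared with another gene, had a peak in 4 adult and 4 spermatogonial libraries. Its fold enrichment was 4.48 to 9.62, highest in Thy1+ KO replicate 1.

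Ccnd3, a D-type cyclin best known in lymphoid cells, lies on chromosome 17 from 47505051 to 47599688 on the plus strand and held 205 of the 387 peaks. At its downstream start, at 47593467, the fold enrichment was 13.3 and 12.3 in PS KO, 14.1 and 12.4 in RS KO, 15.2 in Thy1+ KO replicate 1 and 6.27 to 9.96 in the other 7 spermatogonial libraries. At the upstream start it was 9.15 and 5.86 in PS KO, 9.78 and 8.11 in RS KO, 11.6 in Thy1+ KO replicate 1 and 3.84 to 6.27 in the other spermatogonial libraries, with no peak in c-Kit+ WT replicate 2. At both starts Thy1+ KO replicate 1 was the highest of all libraries. From KO spermatogonia to adult KO cells the centred log2 change was -0.22 (SE 0.15, limma adjusted p = 0.273) at the downstream and -0.18 (SE 0.23, limma adjusted p = 0.572) at the upstream start, both positive before centring (0.46 and 0.49).

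Of the 248 member peaks outside promoters, 176 were at Ccnd3 and 47 at Ccne1. At Ccnd3 the region on chromosome 17 from 47510298 to 47513760, in an intron, had a peak in all 12 libraries, with fold enrichments of 12.6 and 12.3 in PS KO, 9.00 and 7.03 in RS KO and 4.83 to 8.95 in spermatogonia. After centring, its log2 change from c-Kit+ cells to PS was -0.03 (SE 0.24, limma adjusted p = 0.932). A neighbouring region, with its highest summit 13016 bp into the gene, had fold enrichments of 7.09 and 4.66 in c-Kit+ KO and 4.19 and 3.20 in PS KO, no peak in RS KO, and a peak in all 8 spermatogonial libraries. There, on chromosome 17 from 47517752 to 47518587, the centred log2 change from c-Kit+ cells to PS was -1.73 (SE 0.21, limma adjusted p = 0.000243), and both PS libraries were below both c-Kit+ KO libraries. The next intronic region, with its highest summit 17184 bp into the gene, had fold enrichments of 5.20 and 5.25 in c-Kit+ KO, 4.96 and 5.33 in PS KO and 9.78 and 11.4 in RS KO. Both RS libraries were above both PS libraries, and the log2 change from PS to RS was 1.23 (SE 0.22, limma adjusted p = 0.00946). For neither separation of groups, here or from c-Kit+ cells to PS, was the share of all regions that separate likewise counted.

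Tested member regions without a promoter peak listed under the symbol alone numbered 5 between c-Kit+ cells and PS. Of these, 4 passed, all lower in PS, against 25.1% of all regions. They were 3 at Ccnd3 and 1 on the shared lines of Ccnd2, which reaches over its start. Uncentred, 2 of these 4 changes were positive (0.50 at Ccnd2 and 0.15 at the Ccnd3 region starting at 47597525). At the Ccnd3 region starting at 47521325 the log2 change was -1.10 centred (limma adjusted p = 0.00147) but -0.02 uncentred. At that starting at 47517752 it was -0.65 uncentred. Under quantile normalization none of the 4 passed, with adjusted p from 0.0604 to 0.659 in limma, and without c-Kit+ KO replicate 2 none passed either, with adjusted p from 0.0714 to 0.122. The rise from PS to RS was the 1 call among 11 tested regions, where 20.2% of 21329 regions passed, and it was lost without PS KO replicate 1 (limma adjusted p = 0.0532) or replicate 2 (limma adjusted p = 0.159). Between KO spermatogonia and adult KO cells 2 of 4 such regions passed, both lower in adult cells, where 22.4% of all regions were lower. They were that of Ccnd2 above and a Ccnd3 region starting at 47597492 (log2 change -0.69, limma adjusted p = 0.0106), which gave -0.11 under quantile normalization (limma adjusted p = 0.642). That Ccnd3 call was also lost without centring, with uncalled libraries at their lowest value and with peaks joined within 1000 bp (limma adjusted p = 0.979, 0.203 and 0.2998). Of the 16 inputs, 1 (that of Thy1+ KO replicate 1) held a member peak, in an intron of Ccnd3 with a fold enrichment of 4.34.

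Downstream of Ccne1 lay 5 intergenic regions with a peak in 4 or more libraries. The nearest, with its highest summit 21941 bp from the start, on chromosome 7 from 38083936 to 38086384, had fold enrichments of 12.96 and 12.8 in PS KO, 8.21 and 8.11 in RS KO, 7.09 in Thy1+ KO replicate 1 and 3.31 to 4.19 in 4 other spermatogonial libraries, with no peak in 3. A group of 3 regions farther out, from 38069059 to 38076437, had a peak in all 4 adult libraries and in 0 spermatogonial libraries, a pattern shared by 41.6% of the 4374 intergenic regions with a peak in 4 or more libraries. The strongest of them reached 10.3 and 6.40 in PS KO and 12.9 and 9.20 in RS KO. The farthest, from 38060791 to 38062008, had fold enrichments of 9.60 to 12.5 in adult libraries, 9.62 in Thy1+ KO replicate 1 and 4.56 to 6.40 in 6 other spermatogonial libraries. At each of these regions the adult libraries were the highest or the only ones, apart from that Thy1+ KO library at the farthest. At 48.4% of such intergenic regions every adult library was above every spermatogonial one or only adult libraries had a peak. The farthest region, with 9.60 in PS KO replicate 2, did not meet this. No test of these differences was made where libraries lacked a peak.

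**Figure D3:**
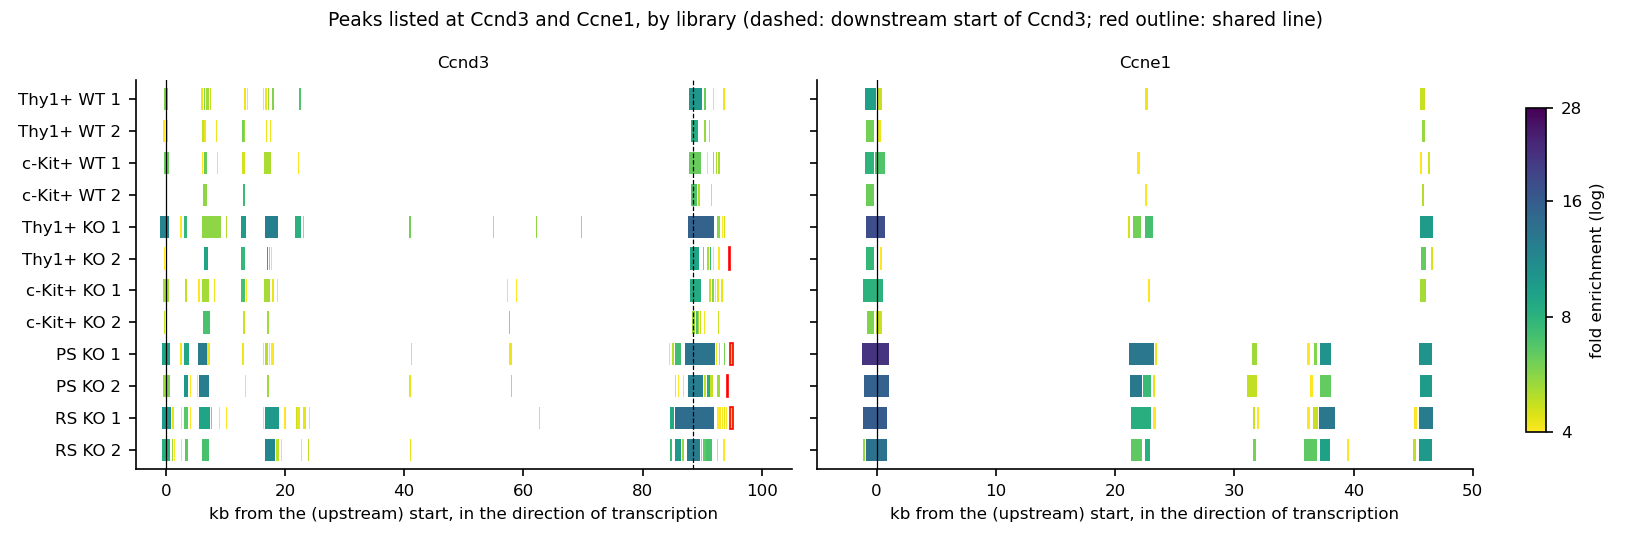
Peaks listed at Ccnd3 (left) and Ccne1 (right) by distance in kb from the start, 1 row per library; colour gives fold enrichment on a log scale, the dashed line is the downstream start of Ccnd3 and red outlines are shared lines. The region whose highest summit is 13016 bp into Ccnd3 is present in all 8 spermatogonial rows and weak or absent in adult rows, and 3 regions downstream of Ccne1 appear in the 4 adult rows only.

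The member promoters were then compared between genotypes and between spermatogonial stages. Between WT and KO, 0 of 7 tested member promoters passed in Thy1+ cells, where 0.00923% of 10835 regions passed, and 0 of 5 in c-Kit+ cells, where 0.0% of 11313 passed. The limma log2 changes from WT to KO lay between -0.29 and 0.09 in Thy1+ cells and between -0.11 and 0.16 in c-Kit+ cells. No member reached an unadjusted p under 0.05 in either (0 of 7 and 0 of 5). Before centring, all 7 were higher in Thy1+ KO (by 0.25 to 0.63), as was the median of all regions, by 0.46. Between Thy1+ and c-Kit+ cells, 0 of 4 promoters passed in WT (0.216% of 10177 regions did, of which the higher made up 0.167% and the lower 0.0491%) and 0 of 7 in KO (0.0% of 11134), with 0 at an unadjusted p under 0.05 in limma. The lowest of these log2 changes was -0.43 at the downstream start of Ccnd3 in WT, where the fold enrichment was 9.96 and 8.45 in Thy1+ and 6.27 and 6.82 in c-Kit+ cells (SE 0.23, limma adjusted p = 0.581). The genotype by stage interaction gave 0 of 5 promoters, with 0.0% of 9585 regions and 0 members at an unadjusted p under 0.05.

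Between the adult stages and spermatogonia, 2 of 6 tested promoters passed, Ccna2 and Ccnb2, both higher in adult KO cells, where 32.3% of 10287 regions passed (9.85% higher and 22.4% lower). From c-Kit+ cells to PS the 4 promoters of Ccna2, Ccnb2, Ccne1 and Ccne2 had positive log2 changes (0.30 to 0.46) and the 5 of Ccnb1, Ccnd1, Ccnd2 and Ccnd3 negative ones (-0.17 to -0.99). These 4 were also positive without centring (1.38 to 1.54), and so were the other 5 (0.09 to 0.91). The median of all regions shifted from -0.17 to 0.91 without centring, and the share of passing regions that were higher in PS was 21.4% with centring, 49.2% under quantile normalization and 98.9% without centring. For adult cells against spermatogonia these shares were 30.5%, 49.7% and 98.4%. From PS to RS, 0 of 8 promoters passed, where 20.2% of regions did (12.4% higher and 7.79% lower in RS), with log2 changes from -0.42 to 0.48 and 0 members at an unadjusted p under 0.05 in limma, and 61.5% of the passing regions were higher in RS with centring and 37.9% without. The number of members passing from c-Kit+ cells to PS was 0 without c-Kit+ KO replicate 2 and 4 without c-Kit+ KO replicate 1 or PS KO replicate 1. These comparisons share libraries and are not independent of each other.

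**Figure D4:**
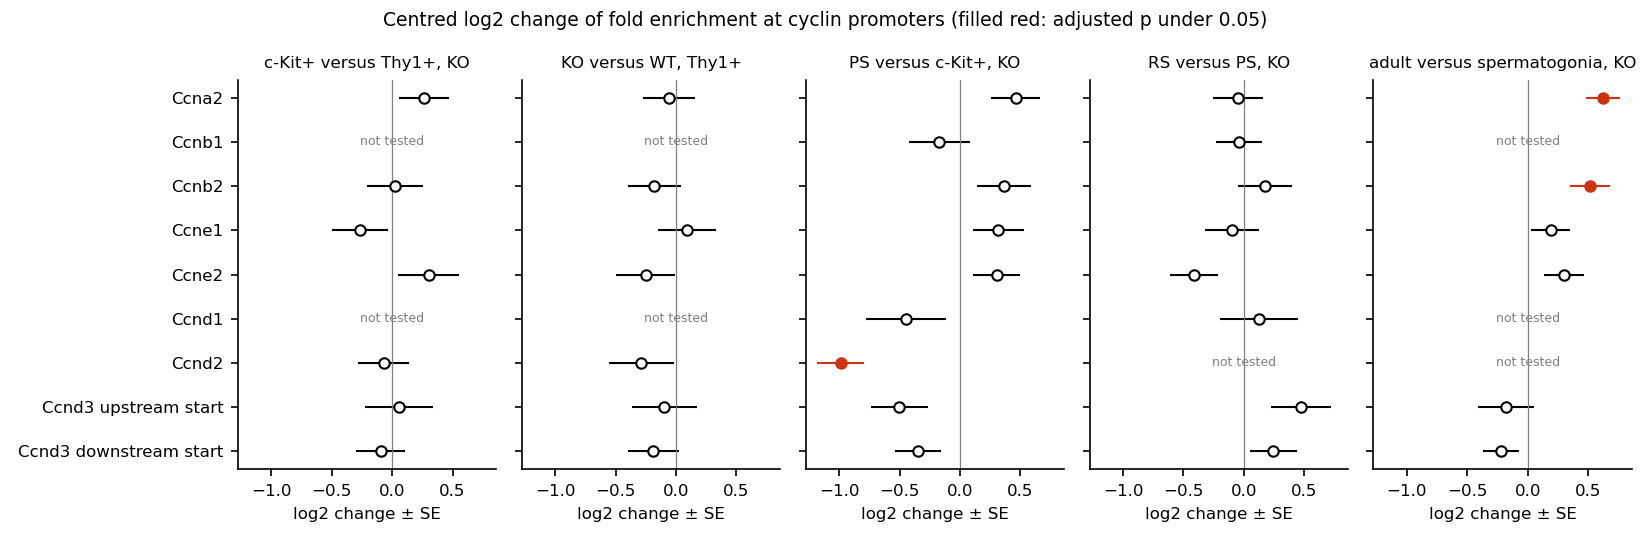
Centred log2 change of promoter fold enrichment with its SE from limma for 9 member promoters in 5 comparisons; filled red points have an adjusted p under 0.05 and open points do not. The red points are Ccnd2 in PS against c-Kit+ cells (-0.99) and Ccna2 and Ccnb2 in adult cells against spermatogonia (0.62 and 0.52).

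Partners, inhibitors and regulators of the cyclins were taken from a list of 73 cell cycle genes. From c-Kit+ cells to PS, 8 of 51 tested promoters rose and 1 fell, 15.7% and 1.96% against 6.83% and 25.1% of all regions, and the median log2 change was 0.02 for the list and -0.17 for all regions. The largest rises were at Spdya, an activator of CDK2 at meiotic telomeres (log2 change 1.61, limma adjusted p = 0.000303, with mean levels of 4.17 ± 0.124 in c-Kit+ KO and 27.1 ± 5.42 in PS KO, SD, n = 2), at Mybl1, the transcription factor A-MYB of pachytene spermatocytes (1.25, from 5.22 ± 0.0319 to 26.3 ± 2.08, SD, n = 2; limma adjusted p = 0.000734), and at Cdkn2d, an inhibitor of CDK4 and CDK6 (1.02, from 5.41 ± 1.05 to 23.2 ± 4.18, SD, n = 2; limma adjusted p = 0.00196). With peaks joined within 1000 bp, the log2 change of Cdkn2d was 0.31 (limma adjusted p = 0.250). The 1 lower promoter was that of Ccng1, an atypical cyclin induced by p53 (log2 change -0.66, limma adjusted p = 0.0192), where the uncentred log2 change was 0.41. Without c-Kit+ KO replicate 2, 0 of the list passed, and without PS KO replicate 2, 4 did.

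Between KO spermatogonia and adult KO cells, 7 of 48 tested list promoters rose and 2 fell, 14.6% and 4.17% against 9.85% and 22.4% of all regions, with a median log2 change of -0.01 for the list and -0.12 for all regions. Spdya (log2 change 1.46, limma adjusted p = 4.78e-05), Mybl1 (1.01, limma adjusted p = 0.00042) and Cdc20, the activator of the anaphase-promoting complex (0.79, limma adjusted p = 0.00191), rose most. Ccng1 (-0.64, limma adjusted p = 0.00271) and Cdk6, a partner of D-type cyclins (-0.46, limma adjusted p = 0.0167), fell, and both were positive before centring (0.04 and 0.22). From PS to RS, 0 of 61 rose and 3 fell (4.92%, against 7.79% of all regions). These were Ccnb3, a B-type cyclin of early meiosis (-1.38, from 19.9 ± 0.575 to 6.81 ± 1.98, SD, n = 2; limma adjusted p = 0.00788), the inhibitor Cdkn2b (-0.76, limma adjusted p = 0.0256) and the spindle checkpoint gene Bub1b (-0.67, limma adjusted p = 0.0372). Without PS KO replicate 2 none of these 3 passed, and without PS KO replicate 1 or RS KO replicate 1 only 1 list promoter did in each case. In the 5 other comparisons 0 list promoters passed in limma, with 0 to 3 at an unadjusted p under 0.05.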

How the data were processed

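H3K27ac and input libraries each came as a peak table. Per the submitters' processing notes, Bowtie, MACS2 and the mm10 build were used, and versions are not given in the sources used here. Per the file headers, the deposited signal height (pileup), fold enrichment (a ratio) and -log10 p and q values were given for each summit. In every table fold enrichment was height plus 1 over background plus 1, and that background was the same for all peaks of a library, so the deposited values hold no input correction. The tables were mapped to groups by the sample titles.

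The highest summit stood for each peak, and peaks on the mitochondrial genome were dropped. Peaks of the libraries compared were merged at 1 bp of overlap, and a region called in each of these libraries was tested on log2 fold enrichment centred on the library median, with limma 3.58.1 in R 4.3.3, Benjamini-Hochberg adjustment over all regions and a threshold of 0.05. Where a promoter held several regions, that with the highest mean was used. Only the groups compared entered each of the 8 fits. A library without a peak gave no value. The scripts were tested on simulated data. Other work used Python 3.11.15, numpy 2.4.6 and pandas 2.3.3.

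The members, the list of 73 genes and the markers were chosen with earlier results of these data known. Named genes were every member, up to 3 list genes higher and 3 lower per comparison by size of log2 change among those past the threshold, and the 5 genes most like Ccna1 and Ccnd2 among promoters with a peak in at least 4 libraries. Alternatives were another normalization or none, a replicate block, uncalled libraries at their lowest value, stricter peaks (-log10 q of at least 10), peaks joined within 1000 bp, equal peak numbers, a promoter distance of 500 bp and leaving out each library, where a group's lone library is taken to vary like the other groups. Where an alternative changed the peaks or the libraries, peaks were merged anew, so the region tested for a promoter can differ. Applying the alternatives to the list and to regions without a promoter peak under the symbol alone was decided after seeing the data. Sequences are from RefSeq, GRCm38.p6, which shares its coordinates with mm10.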

Additional observations from a re-analysis of the deposited data

How the results depend on the processing

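Of 830 log2 changes recomputed under the alternatives, 736 kept their direction and 94 changed sign, 85 of them past the threshold neither before nor after. Ccna2 in adult cells against spermatogonia passed in 15 of 15 alternatives (log2 change 0.55 to 1.30) and Ccnb2 in 11 of 15 (0.38 to 1.19). The cause of the changes below was not tested, beyond what each alternative does by construction. Read depth is unknown, and 58 of 98 promoter calls remained with stricter peaks, so a missing peak does not show missing acetylation. With stricter peaks no member was left to test in 6 of the 8 comparisons.

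The number of member promoters passing between c-Kit+ cells and PS was 1, and it was 0 under quantile normalization, 0 with uncalled libraries at their lowest value, 0 with equal peak numbers, where Ccnd2 was left untested, and 7 without centring, and 0 to 4 when 1 library was left out. For adult cells against spermatogonia it was 2, 4 without centring and 1 to 3 when 1 library was left out. In the list, the number passing between c-Kit+ cells and PS was 9, and it was 5 under quantile normalization, 47 without centring, 3 with uncalled libraries at their lowest value, 2 with stricter peaks and 0 to 10 when 1 library was left out. From PS to RS it was 3, and it was 9 without centring, 1 with stricter peaks and 0 to 2 when 1 library was left out. For adult cells against spermatogonia it was 9, and it was 23 without centring, 4 with stricter peaks and 7 to 11 when 1 library was left out.

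The replicate numbers are shared by all groups, but the labels do not say that a number pairs libraries. Deviations of same-numbered libraries correlated at -0.0079 to 0.17 over the pairs of groups. With a replicate block the member counts were the same, 1 between c-Kit+ cells and PS (Ccnd2, limma adjusted p = 0.00535), 2 for adult cells against spermatogonia and 0 elsewhere, and the list counts were 9, 3 and 9.

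Signs changed as follows, on the log2 scale. Without centring, KO against WT in Thy1+ cells gave 0.48 at Ccna2, 0.36 at Ccnb2, 0.25 at Ccnd2, 0.44 at Ccnd3 upstream, 0.35 at Ccnd3 downstream and 0.28 at Ccne2. In WT, c-Kit+ against Thy1+ cells then gave -0.029 at Ccne2. In KO, c-Kit+ against Thy1+ cells then gave -0.24 at Ccna2, -0.48 at Ccnb2, -0.44 at Ccnd3 upstream and -0.20 at Ccne2. PS against c-Kit+ cells then gave 0.91 at Ccnb1, 0.63 at Ccnd1, 0.091 at Ccnd2, 0.57 at Ccnd3 upstream and 0.73 at Ccnd3 downstream. The same comparison gave 0.50 at the Ccnd2 region on shared lines, 0.15 at the Ccnd3 region outside its promoters and 0.41 at Ccng1. RS against PS then gave -0.021 at Ccnb2 and -0.070 at Ccnd1. Adult cells against spermatogonia then gave 0.49 at Ccnd3 upstream, 0.46 at Ccnd3 downstream, 0.040 at Ccng1 and 0.22 at Cdk6. The interaction then gave -0.38 at Ccna2, -0.076 at Ccnd2, -0.11 at Ccnd3 downstream and -0.17 at Ccne2. With peaks joined within 1000 bp, KO against WT in Thy1+ cells gave 0.063 at Ccnd2. KO against WT in c-Kit+ cells then gave -0.33 at Ccnd2. PS against c-Kit+ cells then gave 0.012 at Ccnd1. RS against PS then gave -0.32 at Ccnd1 and -0.27 at Ccnd3 upstream. The interaction then gave -0.41 at Ccnd2. With uncalled libraries at their lowest value, c-Kit+ against Thy1+ cells in WT gave -0.056 at Ccne2. In KO, c-Kit+ against Thy1+ cells then gave -0.21 at Ccnb2 and -0.17 at Ccnd3 upstream. PS against c-Kit+ cells then gave 0.14 at Ccnb1. RS against PS then gave -0.023 at Ccnb2 and -0.072 at Ccnd1. Adult cells against spermatogonia then gave 0.16 at Ccnd3 upstream and 0.12 at Ccnd3 downstream. Under quantile normalization, c-Kit+ against Thy1+ cells in KO gave -0.031 at Ccnb2. PS against c-Kit+ cells then gave 0.19 at Ccnb1, 0.12 at Ccnd1 and 0.10 at Ccnd3 upstream. RS against PS then gave 0.10 at Ccna2, -0.0030 at Ccnd1 and 0.021 at Ccne1. Adult cells against spermatogonia then gave 0.25 at Ccnd3 upstream. With stricter peaks, RS against PS gave 0.12 at Ccna2, 0.13 at Ccnb1 and 0.069 at Ccne1. When 1 library was left out, KO against WT in Thy1+ cells ranged from -0.68 to 0.16 at Ccnd2, -0.52 to 0.37 at Ccnd3 upstream, -0.13 to 0.36 at Ccne1, -0.12 to 0.046 at Ccna2 and -0.57 to 0.11 at Ccne2. KO against WT in c-Kit+ cells then ranged from -0.069 to 0.14 at Ccna2, -0.11 to 0.17 at Ccnd2, -0.043 to 0.41 at Ccnd3 downstream and -0.17 to 0.28 at Ccne2. In WT, c-Kit+ against Thy1+ cells then ranged from -0.33 to 0.049 at Ccne1 and -0.26 to 0.22 at Ccne2. In KO, c-Kit+ against Thy1+ cells then ranged from -0.24 to 0.26 at Ccnb2, -0.35 to 0.0093 at Ccnd2, -0.40 to 0.41 at Ccnd3 upstream and -0.054 to 0.54 at Ccne2. PS against c-Kit+ cells then ranged from -1.22 to 0.30 at Ccnb1 and -0.95 to 0.14 at Ccnd1. RS against PS then ranged from -0.040 to 0.35 at Ccnb2, -0.45 to 0.11 at Ccne1, -0.25 to 0.0095 at Ccna2 and -0.54 to 0.64 at Ccnd1. Adult cells against spermatogonia then ranged from -0.33 to 0.048 at Ccnd3 upstream. The interaction then ranged from -0.034 to 0.78 at Ccnd2, -0.036 to 0.17 at Ccna2, -0.45 to 0.0061 at Ccne1 and -0.043 to 0.59 at Ccne2.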
